A study of Rattus norvegicus with 36 samples.

Results

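The BCL2 family members that promote apoptosis were examined in H9C2 cells, a rat cardiac myoblast line, after transfection with miR-125b or one of its 3′ isomiRs. The genes were chosen by name: the effectors *Bak1*, *Bax* and *Bok*, and the BH3-only genes *Bcl2l11* (encoding BIM), *Bmf*, *Bid*, *Bad*, *Bik*, *Hrk* and *Pmaip1* (encoding NOXA). Of these 10 symbols, 9 were found among the 24275 genes listed in the count tables, and *Hrk* matched no gene. All 9 carry a single identifier, and no other listed gene overlaps their coordinates. On the build of the tables, which is not named, the effectors lie on chromosomes 20 (*Bak1*, 5609629 to 5618221, minus strand), 1 (*Bax*, 101451802 to 101457207, minus strand) and 9 (*Bok*, 100829552 to 100840504, plus strand). *Bcl2l11* (120726906 to 120764192, plus strand) and *Bmf* (110306067 to 110324084, minus strand) both lie on chromosome 3, and *Pmaip1* on chromosome 18 (62174670 to 62181102, plus strand). *Bid* is on chromosome 4, *Bad* on chromosome 1 and *Bik* on chromosome 7. Between the groups, 8 of the 9 were tested, since *Bik* did not pass the filter on low counts.

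The line was grown with 10% serum, received 25 nmol/L of a mimic for 24 h, and then spent 24 h in normoxia, in fresh medium, or in hypoxia (below 0.2% oxygen), in medium low in glucose and without serum. Oxygen, serum and glucose thus changed together and cannot be told apart in any comparison of hypoxia with normoxia. A mimic control (MC) and miR-125b itself were set beside 4 isomiRs, of which Plus A is longer and Trim AGU, Trim AG and Trim A are shorter, so that every group, the control included, had been transfected with an RNA. Poly-A RNA of 36 samples was sequenced without strand information, 3 for each of the 12 groups, and counts of 33 libraries in 11 groups were used. Normoxia MC was represented only by the authors' group mean, so each tested comparison with MC below is in hypoxia. No source says whether the replicates came from separate cultures, so the p-values measure the spread between these libraries, which may be technical. All groups derive from a single cell line.

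Effector proteins of this family permeabilise the outer mitochondrial membrane once activated, and cytochrome c then leaves the mitochondrion and starts the caspase cascade. BH3-only proteins sense stress or loss of survival signals, and they either bind and neutralise the pro-survival relatives (BCL2, BCL-XL, BCL-W and MCL1) or activate the effectors directly. In heart muscle this pathway is known for the loss of myocytes in ischaemia. A microRNA such as miR-125b represses messenger RNAs that pair with its seed, so its transcripts can fall in level when a mimic is added.

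The 5 miR-125b mimics are shown because, by their names, they differ from each other at the 3′ end. They were built from the rat mature miR-125b-5p of RefSeq (GRCr8, chr11:29732588-29732609, plus strand) by adding or removing the bases in each mimic's name, and the capitals mark the seed (bases 2 to 8).
miR-125b: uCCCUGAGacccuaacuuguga
Plus A: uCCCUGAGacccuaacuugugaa
Trim A: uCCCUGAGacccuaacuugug
Trim AG: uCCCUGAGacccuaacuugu
Trim AGU: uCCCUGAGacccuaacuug
The lengths run from 19 bases in Trim AGU to 23 bases in Plus A. All 5 share the seed, and as built here they differ in 3′ length. The supplier's sequences were not at hand, so other differences between the mimics are not known.

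The libraries held 28361216 to 42672584 counts (median 29923694). The 3 Hypoxia Trim AG libraries were the deepest, with at least 39940087 counts, and no other library exceeded 34505938. Of 8 muscle markers 7 reached a mean of 1 CPM (a gene's count relative to the total count of its library), and *Nkx2-5*, a cardiac transcription factor gene, did not. The summed muscle markers were 939.4 to 956.8 CPM in Hypoxia MC and 171 to 360.1 CPM in the other 10 groups. Fibroblast markers were abundant in each library (summed 9074 to 33455 CPM, 4 of 5 at 1 CPM or more, *Pdgfra* below it), the immune markers *Ptprc* and *Cd3e* and both epithelial markers were below 1 CPM, the third immune marker (*Cd68*) was above it, with a summed immune level of 0.7916 to 2.815 CPM, and the endothelial markers matched no gene. In these bulk samples a lower share of cells with a transcript and a lower amount per cell cannot be told apart.

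Replicate 1 of Normoxia Plus A and replicate 1 of Normoxia miR-125b stood apart from their own groups. *Cav1*, which is no BCL2 family gene and was singled out after its values were seen, had 268.9 CPM in replicate 1 of Normoxia Plus A, against 97.95 and 98.3 CPM in the others, and 102.3 CPM in replicate 1 of Normoxia miR-125b, against 282 and 262.9 CPM in the others. In hypoxia it was at 93.87 to 100.2 CPM in Plus A and 241.2 to 246.2 CPM in miR-125b, so each of these 2 libraries had the level of the other mimic. The labels were kept, and whether they were exchanged was not tested. Values without the 2 libraries stand beside the called fold changes that rest on them, and not beside all levels, ranges and correlations. Other groups had replicates further apart, by the chi-square per gene of a pair of replicates against sampling noise. It was 5.29 to 17.1 in Normoxia Plus A and Normoxia miR-125b. It reached 73.8 in Hypoxia Trim A, 96 in Hypoxia Trim AG, 35.3 in Normoxia Trim AGU and 219 in Hypoxia Trim AGU.

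On a scale that corrects for gene length (FPKM, fragments relative to gene length and library size), *Bax* had the highest level of the 9 genes in each group. In Hypoxia MC *Bax* was at 140.1 ± 3.90 FPKM (SD, n = 3), followed by *Bad* at 52.19, *Bak1* at 30.72, *Pmaip1* at 29.78, *Bok* at 24.07, *Bmf* at 16.54, *Bid* at 13.17 and *Bcl2l11* at 8.64 FPKM. The order was another one where a miR-125b mimic had been added. *Bok* stood at rank 5 in Hypoxia MC and at rank 2 or 3 in the other 10 groups, while *Bmf* stood at rank 6 in Hypoxia MC and at rank 7 or 8 elsewhere.

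*Bmf* had the widest range over the groups, with the highest group mean 7.64 times the lowest, followed by *Bok* (3.52 times), *Bax* (2.46 times) and *Bcl2l11* (2.19 times). *Bid*, *Bad*, *Bak1* and *Pmaip1* had ratios of 1.84, 1.77, 1.73 and 1.71. When the 11 groups were ordered by their mean, 7 to 9 of the 10 pairs of neighbours overlapped in their libraries for each of these 8 genes. *Bik* had 0 to 7 counts per library and was at 0 in 20 of 33 libraries, where 3 counts, the limit that a count of 0 allows, correspond to 0.0703 CPM in the deepest library and 0.106 CPM in the shallowest. Its level was thus not measurable at this depth.

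**Figure D1:**
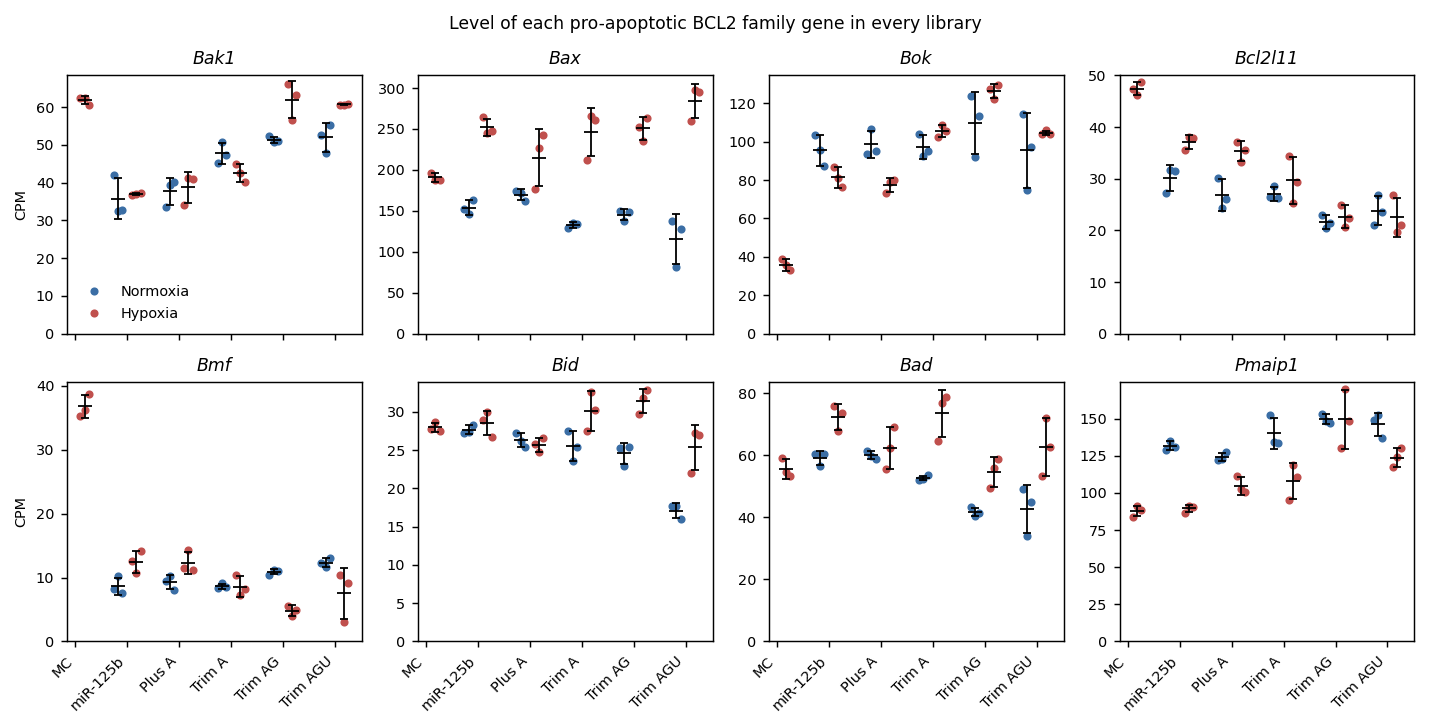
Level of the 8 tested genes in CPM (linear axes from 0) in each library, by mimic and oxygen; points are the 3 libraries of a group, and bars give the mean and SD. Hypoxia MC lies above all other groups for Bmf (35.31 to 38.78 CPM) and Bcl2l11 and below all other groups for Bok (33.05 to 39.14 CPM).

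The comparison of each mimic with MC in hypoxia asks which of these genes respond to miR-125b and its isomiRs in cells short of oxygen. *Bmf* fell and *Bok* rose with all 5 mimics. *Bak1* fell with miR-125b and Plus A but was close to its MC level with Trim AG and Trim AGU. *Bcl2l11* fell by 1.5-fold or more with the 3 shortened isomiRs, and *Pmaip1* rose by 1.5-fold or more with Trim AG and Trim AGU. To be called, a gene had to change by 1.5-fold or more with a Benjamini-Hochberg adjusted p below 0.05 in the quasi-likelihood test of edgeR. By this rule 3 of 8 genes were called with miR-125b (background 21.9% of all 15143 genes tested), 3 with Plus A (24.8% of 15159), 3 with Trim A (28.1% of 15183), 4 with Trim AG (37.2% of 15315) and 5 with Trim AGU (23.8% of 15026). The median log2 fold change of the 8 genes lay between 0.04 and 0.25 in these comparisons, and that of all genes between -0.02 and 0.00. The 5 comparisons share the MC libraries, so they are not independent of each other.

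Among the effectors, *Bak1* (identifier ENSRNOG00000000485 in the tables) has a product that inserts into the outer mitochondrial membrane, and it is a known target of miR-125b. The paper of these data reports that miR-125b lowered messenger RNA and protein of *Bak1*, *Bcl2l11* and *Bmf* in H9C2 cells. Here *Bak1* was at 62.55, 62.33 and 60.71 CPM in Hypoxia MC, at 36.85, 36.91 and 37.29 CPM with miR-125b and at 34.05, 41.24 and 40.93 CPM with Plus A. All 6 libraries of these mimics lay below the MC libraries. The log2 fold change was -0.70 ± 0.04 (SE) with miR-125b (edgeR adjusted p = 1.3e-07) and -0.65 ± 0.07 with Plus A (adjusted p = 2.8e-05). Without replicate 1 of Hypoxia Plus A the latter was -0.57 and under the fold threshold. With Trim A *Bak1* was at 44.87, 42.71 and 40.28 CPM, again below MC, with a log2 fold change of -0.49 that passed the adjusted p (0.00049) and not the fold threshold. With Trim AG it was at 66.11, 56.53 and 63.18 CPM and with Trim AGU at 60.67, 60.59 and 60.91 CPM, and both groups overlapped MC. The log2 differences from MC there were 0.07 (95% interval -0.11 to 0.23) and 0.12 (-0.11 to 0.35).

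*Bax* (ENSRNOG00000020876), the effector that moves from the cytosol to mitochondria on activation, was at 196.7, 187.8 and 187.8 CPM in Hypoxia MC. With Trim AGU it was at 260.1, 297.3 and 295.5 CPM, and it rose by 0.72 ± 0.12 on the log2 scale (adjusted p = 0.0076). That call was lost without replicate 2 or replicate 3 of MC (adjusted p = 0.052 and 0.053) and, at 0.53, with the trend on gene length removed. With miR-125b, Trim A and Trim AG all libraries were above MC and the log2 fold changes were 0.44, 0.42 and 0.46, past the adjusted p and under the fold threshold. With Plus A the libraries were at 176.4, 226.6 and 242.2 CPM and overlapped MC.

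*Bok* (ENSRNOG00000018214), a relative of *Bak1* and *Bax* whose protein level is known to be set by its degradation, was the effector with the largest difference. It was at 39.14, 35.6 and 33.05 CPM in Hypoxia MC, at 86.73, 81.27 and 76.13 CPM with miR-125b and at 73.32, 78.8 and 80.08 CPM with Plus A. It was at 102.6, 108.8 and 105.5 CPM with Trim A, at 127.5, 122 and 129.2 CPM with Trim AG and at 103.7, 105.9 and 103.9 CPM with Trim AGU. Each of the 15 mimic libraries was above the 3 MC libraries. The log2 fold change against MC was 1.22 ± 0.07 with miR-125b (adjusted p = 7.4e-08), 1.13 ± 0.07 with Plus A (adjusted p = 5.5e-07) and 1.60 ± 0.08 with Trim A (adjusted p = 7.4e-06). With Trim AG it was 1.88 ± 0.08 (adjusted p = 1.1e-06), a 3.67-fold rise, and with Trim AGU 1.69 ± 0.12 (adjusted p = 0.00056).

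Among the BH3-only genes, *Bmf* (ENSRNOG00000007529), whose product is held by the cytoskeleton and released on loss of adhesion, was at 35.31, 36.24 and 38.78 CPM in Hypoxia MC. It was at 12.58, 10.71 and 14.17 CPM with miR-125b, at 11.46, 14.33 and 11.19 CPM with Plus A and at 10.33, 7.22 and 8.17 CPM with Trim A. With Trim AG it was at 5.57, 3.93 and 4.95 CPM and with Trim AGU at 10.38, 3.01 and 9.16 CPM. No mimic library exceeded 14.33 CPM, so all were below MC. The log2 fold change was -1.52 ± 0.09 with miR-125b (adjusted p = 1.2e-07), -1.55 ± 0.09 with Plus A (adjusted p = 6e-07) and -2.06 ± 0.12 with Trim A (adjusted p = 1.3e-05). With Trim AG it was -2.87 ± 0.12 (adjusted p = 7.9e-07), a 7.31-fold fall, and with Trim AGU -2.18 ± 0.38 (adjusted p = 0.0082). Replicate 2 of Hypoxia Trim AGU was the lowest library, and without it the Trim AGU value was -1.83 (adjusted p = 6.9e-06). In the 5 comparisons with MC 4 to 6 of the 8 muscle markers were called lower (12.4 to 20.2% of all genes tested). *Myog*, the myogenin gene, was among them in all 5. With Trim AG *Gata4* was called higher (log2 fold change 0.63), and *Acta1* was near its MC level (0.01). The part of these markers in the *Bmf* result was not tested. Of the fibroblast markers, 2 of 5 were lower with Trim AG, 1 was higher with miR-125b and with Plus A, and 0 were called with the other 2 mimics.

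*Bcl2l11* (ENSRNOG00000016551) encodes BIM, which binds all pro-survival relatives and can activate the effectors. It was at 47.34, 46.21 and 48.67 CPM in Hypoxia MC, at 34.35, 25.24 and 29.44 CPM with Trim A, at 24.94, 20.56 and 22.36 CPM with Trim AG and at 26.87, 19.61 and 21.06 CPM with Trim AGU. The log2 fold change was -0.63 ± 0.10 with Trim A (adjusted p = 0.0012), -1.005 ± 0.08 with Trim AG (adjusted p = 1.5e-05) and -0.94 ± 0.12 with Trim AGU (adjusted p = 0.0033). The Trim A call was lost without replicate 2 of Trim A (-0.54) and with the trend on gene length removed (-0.47), at an adjusted p that still passed. With miR-125b (35.47, 38.04 and 37.84 CPM) and Plus A (37.16, 33.25 and 35.56 CPM) all libraries were also below MC, by 0.32 and 0.40 in log2 size, under the fold threshold. *Bcl2l11* has the longest gene model of the 9 genes (5141 bases), against 956 to 2763 bases for the others.

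*Pmaip1* (ENSRNOG00000018770), whose product neutralises MCL1, was at 83.87, 91.04 and 88.37 CPM in Hypoxia MC. It was at 130.2, 170.2 and 148.3 CPM with Trim AG and at 117.2, 124.1 and 130.2 CPM with Trim AGU, all above MC. It rose by 0.83 ± 0.11 on the log2 scale with Trim AG (adjusted p = 0.00022) and by 0.64 ± 0.11 with Trim AGU (adjusted p = 0.0071). The Trim AGU call was lost without replicate 1 of MC (adjusted p = 0.051), likewise without replicate 3 of MC, and without replicate 2 of Trim AGU (log2 fold change 0.58). With Plus A (111.7, 102.5 and 100.3 CPM) and Trim A (94.9, 119 and 110.6 CPM) all libraries were also above MC. The log2 fold changes there, 0.28 (adjusted p = 0.0021) and 0.35 (adjusted p = 0.016), passed the adjusted p and not the fold threshold. With miR-125b, at 86.73, 91.21 and 90.57 CPM, *Pmaip1* overlapped MC (log2 difference 0.07, 95% interval -0.02 to 0.15).

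*Bid*, whose product links death receptors to mitochondria after cleavage by caspase 8, and *Bad*, which binds BCL2 and BCL-XL and is controlled by phosphorylation, were called with none of the mimics against MC by edgeR or by DESeq2. *Bid* was at 27.7, 28.68 and 27.52 CPM in Hypoxia MC and at 21.96 to 32.81 CPM in the mimic libraries, with log2 fold changes of -0.10 to 0.23, of which that of Trim AG passed the adjusted p (0.024). *Bad* was at 59.27, 54.67 and 53.2 CPM in Hypoxia MC and had log2 fold changes of 0.04 to 0.45, of which those of miR-125b (0.42) and Trim A (0.45) passed the adjusted p alone.

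**Figure D2:**
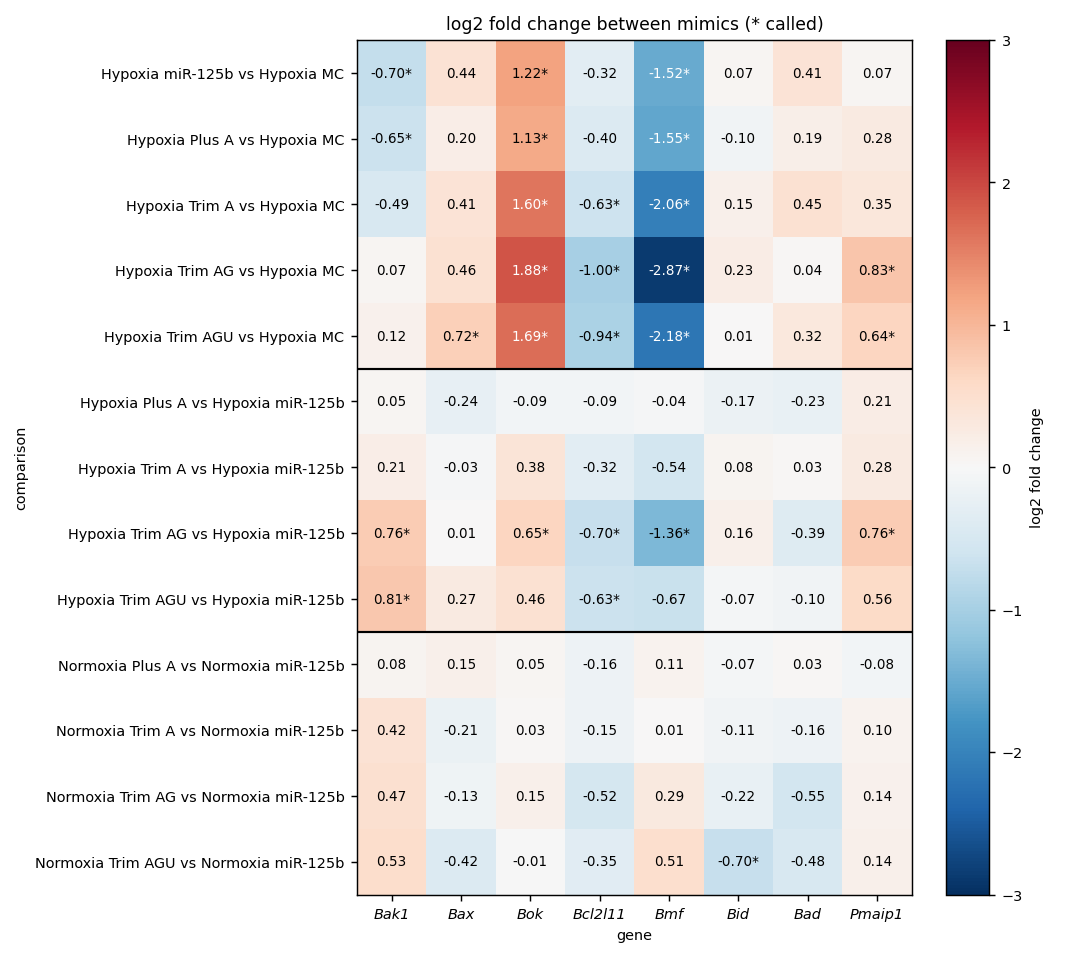
log2 fold changes of the 8 tested genes (columns) in the 13 comparisons between mimics (rows), with red for higher and blue for lower in the first-named group and an asterisk for genes called. Bmf and Bok carry an asterisk in all 5 comparisons with MC, and the comparisons with miR-125b hold most of their asterisks in Hypoxia Trim AG.

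The comparison of each isomiR with miR-125b, at the same dose and time, asks whether these transcripts differ between mimics named for their 3′ ends. The groups also differed in library depth and in the spread of replicates, and the part of these was not tested. In hypoxia Trim AG differed from miR-125b in 5 of the 8 genes (background 19.3% of 15305) and Trim AGU in 2 (3.75% of 15051). Plus A and Trim A differed in 0 genes each by edgeR (2.03% of 15134 and 0.873% of 15115 genes called), where 4 and 5 genes had an unadjusted p below 0.05 and DESeq2 also called 0. Against miR-125b, *Bak1* and *Pmaip1* were higher and *Bmf* and *Bcl2l11* lower with Trim AG. The 4 comparisons share the miR-125b libraries, and p-values were adjusted over all genes of each comparison.

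*Bak1*, at 36.85 to 37.29 CPM with miR-125b and 56.53 to 66.11 CPM with Trim AG, was higher with Trim AG by 0.76 ± 0.07 on the log2 scale (adjusted p = 0.00015), a 1.69-fold difference. With Trim AGU it was higher by 0.81 ± 0.10 (adjusted p = 0.011), a call lost without any one of the 3 miR-125b libraries (adjusted p = 0.11 each) and without replicate 3 of Trim AGU (0.06), while the log2 fold change stayed at 0.80 to 0.86. With Plus A the log2 difference was 0.05 (95% interval -0.12 to 0.22) and with Trim A 0.21 (0.06 to 0.36, adjusted p = 0.13). The intervals of Plus A and Trim A thus lay below the values of Trim AG and Trim AGU, though isomiRs were not tested against each other.

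Relative to miR-125b, *Bmf* with Trim AG had a log2 fold change of -1.36 ± 0.16 (adjusted p = 0.0004), and the libraries did not overlap. With Trim A the log2 difference was -0.54 (95% interval -0.91 to -0.17, adjusted p = 0.11), and without replicate 1 of Trim A *Bmf* was called. With Trim AGU it was -0.67 with a wide interval (-1.59 to 0.25), since its libraries spread from 3.01 to 10.38 CPM. *Bok* was higher with Trim AG by 0.65 ± 0.07 (adjusted p = 0.00029), with differences of 0.46 with Trim AGU (95% interval 0.20 to 0.71, adjusted p = 0.067) and 0.38 with Trim A (0.22 to 0.55, adjusted p = 0.041) that were not called.

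For *Bcl2l11* the log2 fold change relative to miR-125b was -0.70 ± 0.08 in Trim AG (adjusted p = 0.00042) and -0.63 ± 0.13 in Trim AGU (adjusted p = 0.044). The Trim AGU call was lost without any one of the miR-125b libraries (adjusted p of 0.21 to 0.25), without replicate 3 of Trim AGU, without the filter on low counts (adjusted p = 0.057) and with the trend on gene length removed (-0.405). *Pmaip1* was higher with Trim AG by 0.76 ± 0.11 (adjusted p = 0.00092) and had a log2 difference of 0.57 with Trim AGU (adjusted p = 0.037), under the fold threshold. *Bax*, *Bid* and *Bad* were called in none of the 4 comparisons. For *Bax* the interval of the log2 difference between Trim AG and miR-125b was -0.15 to 0.17, and for *Bad* the difference was -0.39 (adjusted p = 0.0097).

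In normoxia *Bid* was the single one of the 8 genes called between an isomiR and miR-125b, with Trim AGU (background 11.4% of 14720). *Bid* was at 27.3, 27.35 and 28.32 CPM with miR-125b and at 17.63, 17.69 and 15.99 CPM with Trim AGU in normoxia, without overlap, and the log2 fold change was -0.70 ± 0.09 (adjusted p = 0.00065), or -0.71 (adjusted p = 0.0031) without replicate 1 of Normoxia miR-125b. With Trim AG 0 of the 8 genes were called by edgeR and by DESeq2 (background 13.9% of 14864), with 5 at an unadjusted p below 0.05. Without the fold threshold 4 of the 8 passed the adjusted p of edgeR, as did 38.5% of all genes. *Bad* (-0.55, adjusted p = 9.1e-05) and *Bcl2l11* (-0.52, adjusted p = 0.00097) were among them. With Trim AGU *Bad* was at -0.48 (adjusted p = 0.024). Without replicate 1 of Normoxia miR-125b *Bad* was at -0.53 (adjusted p = 0.00014) with Trim AG and -0.46 (adjusted p = 0.074) with Trim AGU. *Bak1*, at 52.36, 50.78 and 50.94 CPM with Trim AG and 52.72, 47.96 and 55.32 CPM with Trim AGU, was above the 42.03, 32.54 and 32.84 CPM of miR-125b in each library, with log2 fold changes of 0.47 and 0.53 under the fold threshold. Without replicate 1 of Normoxia miR-125b, the library at 42.03 CPM, *Bak1* was called with Trim AG (0.61, adjusted p = 4.5e-05) and with Trim AGU (0.66, adjusted p = 0.0039), and *Bcl2l11* with Trim AG (-0.59, adjusted p = 0.00044).

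Trim A in normoxia had 0 called genes of the 8 by edgeR and DESeq2 (background 0.414% of 14732), with 3 at an unadjusted p below 0.05. *Bak1* differed there by 0.42 (adjusted p = 0.065), and by 0.56 (adjusted p = 0.0041), still under the fold threshold, without replicate 1 of Normoxia miR-125b. Plus A had 0 as well by edgeR (background 0% of 14781) and by DESeq2, with 1 of the 8, *Bax*, at an unadjusted p below 0.05. Of all genes in this comparison 404 had an unadjusted p below 0.05 and DESeq2 called 1. *Bak1* was at 33.69, 39.3 and 40.13 CPM with Normoxia Plus A, so that replicate 1 of each group lay with replicates 2 and 3 of the other, as for *Cav1*. Without both replicates 1, *Bak1* differed by 0.30 (95% interval 0.16 to 0.45, adjusted p = 0.028) and *Bcl2l11* by -0.30 (adjusted p = 0.046), both under the fold threshold, and 166 of 14856 genes were called.

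The comparison of hypoxia with normoxia under each mimic asks how these genes differ between the 2 culture conditions, which include serum and glucose, once miR-125b or an isomiR is present. *Bax* was the gene that most often rose in hypoxia, with 4 of the 5 mimics. Of the 8 genes, 2 were called with miR-125b (background 20.9% of 15028), 1 with Trim A (26.5% of 14973), 2 with Trim AG (32.8% of 15256) and 2 with Trim AGU (27% of 14811). With Plus A 0 were called by edgeR and by DESeq2 (22.8% of 15032 genes called), with 5 at an unadjusted p below 0.05. No such comparison was made for MC.

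*Bax* was at 152.3, 146.1 and 163.4 CPM in normoxia and at 264.1, 244.7 and 247 CPM in hypoxia with miR-125b. It rose on the log2 scale by 0.63 ± 0.05 with miR-125b (adjusted p = 1.4e-05), 0.82 ± 0.10 with Trim A (adjusted p = 0.00029) and 0.79 ± 0.08 with Trim AG (adjusted p = 5.4e-05), without overlap. For miR-125b the value was 0.62, and still called, without replicate 1 of Normoxia miR-125b, and 0.58, just under the fold threshold, with the trend on gene length removed. With Trim AGU *Bax* was at 137.4, 80.89 and 128.4 CPM in normoxia and at 260.1, 297.3 and 295.5 CPM in hypoxia, a rise of 1.34 ± 0.22 (adjusted p = 0.0051), and without the lowest library (replicate 2 in normoxia) it was 1.14 (adjusted p = 0.014). With Plus A it was at 174.7, 172.2 and 162.3 CPM in normoxia and at 176.4, 226.6 and 242.2 CPM in hypoxia, a log2 difference of 0.23 (95% interval 0.01 to 0.46, adjusted p = 0.083), and 0.23 (adjusted p = 0.14) without replicate 1 of Normoxia Plus A.

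*Bmf* fell in hypoxia with Trim AG, from 10.42, 11.15 and 11.06 CPM to 5.57, 3.93 and 4.95 CPM (log2 fold change -1.17 ± 0.15, adjusted p = 0.00019). With miR-125b its log2 difference had the other sign (0.45, 95% interval 0.12 to 0.78, adjusted p = 0.028), under the fold threshold, and without replicate 1 of Normoxia miR-125b it was 0.41 and past neither threshold (adjusted p = 0.058). In the same comparison of Trim AG 5 of 8 muscle markers and 3 of 5 fibroblast markers were lower and 1 muscle marker was higher in hypoxia, and their part in the *Bmf* value was not tested. *Pmaip1* fell in hypoxia with miR-125b, from 129.2, 135.2 and 131 CPM to 86.73, 91.21 and 90.57 CPM (log2 fold change -0.64 ± 0.04, adjusted p = 3.6e-06), and without replicate 1 of Normoxia miR-125b this was -0.65 (adjusted p = 1.2e-06). It was also lower, without overlap and under the fold threshold, with Plus A (-0.35, adjusted p = 0.001) and Trim A (-0.45, adjusted p = 0.0082). Without replicate 1 of Normoxia Plus A the Plus A value was -0.39 (adjusted p = 0.00079). Under Trim AGU *Pmaip1* differed by -0.195 (adjusted p = 0.28). With Trim AG it was at 153.3, 148.7 and 146.9 CPM in normoxia and 130.2, 170.2 and 148.3 CPM in hypoxia, which overlap (log2 difference 0.01, 95% interval -0.24 to 0.25). *Bid* rose in hypoxia with Trim AGU by 0.62 ± 0.18 on the log2 scale (adjusted p = 0.033), a call lost when any one of 5 of the 6 libraries was left out and when the trend on gene length was removed.

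*Bak1*, *Bok*, *Bcl2l11* and *Bad* were called between hypoxia and normoxia under none of the 5 mimics by edgeR, while DESeq2 called *Bad* with Trim AGU. Their log2 differences ranged from -0.24 to 0.28 for *Bak1*, from -0.46 to 0.21 for *Bok*, from -0.04 to 0.29 for *Bcl2l11* and from -0.05 to 0.61 for *Bad*. The values -0.46 for *Bok* and 0.29 for *Bcl2l11* were those of Plus A. Without replicate 1 of Normoxia Plus A they were -0.52 and 0.35, still not called.

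**Figure D3:**
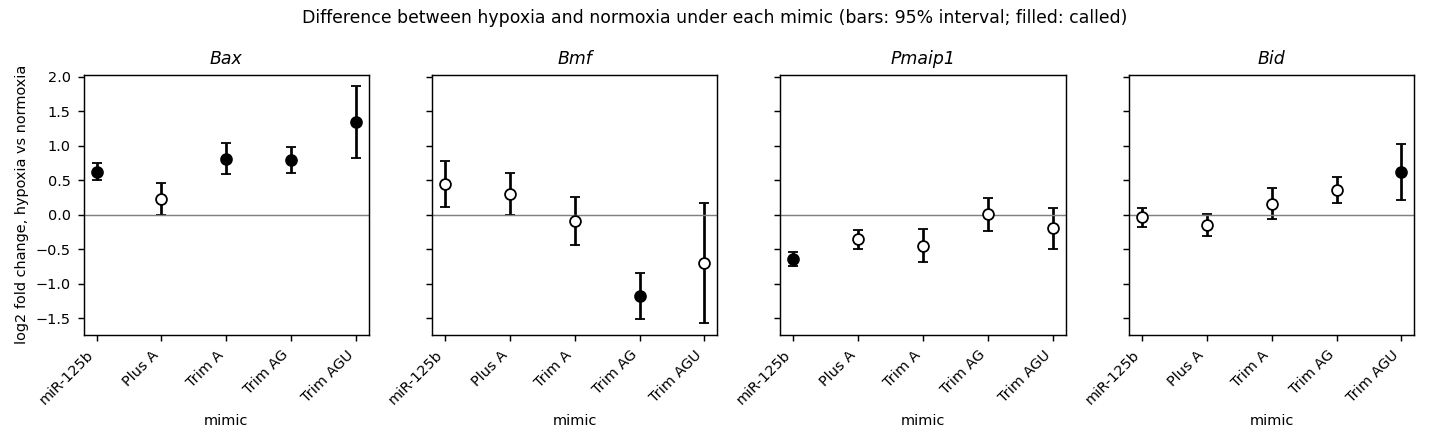
log2 fold change of hypoxia against normoxia (vertical axis) under each of the 5 mimics for Bax, Bmf, Pmaip1 and Bid; bars are 95% intervals, and filled points are called. Bax lies above 0 under every mimic, and Bmf goes from 0.45 with miR-125b to -1.17 with Trim AG.

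Whether the effect of an isomiR relative to miR-125b depended on the hypoxia condition as a whole, its medium included, was tested as an interaction over 12 libraries. With Trim AG 2 of the 8 genes were called (background 11.3% of 15603). For *Bmf* the response to hypoxia under Trim AG was lower than under miR-125b by a log2 value of -1.66 ± 0.21 (adjusted p = 0.00028), and for *Pmaip1* it was higher by 0.61 ± 0.12 (adjusted p = 0.0042). Without replicate 1 of Normoxia miR-125b these were -1.62 and 0.63, both still called, and without replicate 2 of Hypoxia Trim AG, the library at 170.2 CPM, *Pmaip1* was at 0.50, under the fold threshold. In the same interaction 4 of 8 muscle markers were lower, among them *Myog* (-2.62) and *Tnnt2* (-2.70), *Acta1* was higher (1.33) and 1 of 5 fibroblast markers, *Col1a1*, was lower (-0.95), and their part was not tested. With Plus A (background 0.0193% of 15569) and Trim A (0.605% of 15534) 0 of the 8 were called by edgeR and by DESeq2, with 3 and 2 at an unadjusted p below 0.05. With Trim AGU (0.966% of 15525) 0 were called by edgeR and 1, *Bid*, by DESeq2, with 5 at an unadjusted p below 0.05. Without replicate 1 of Normoxia miR-125b edgeR again called 0 of the 8 in these 3 interactions, and for Plus A also without replicate 1 of Normoxia Plus A and without both. With Trim AGU the *Bmf* value was -1.15 (95% interval -2.07 to -0.23, adjusted p = 0.16), or -1.14 (adjusted p = 0.29) without replicate 1 of Normoxia miR-125b, and without replicate 2 of Hypoxia Trim AGU *Bmf* was called.

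For Normoxia MC a single mean per gene was at hand, the authors' mean, beside that of Normoxia Plus A on the same normalized scale. With no spread, these are values without a test, and Normoxia Plus A holds the library that stood apart. *Bmf* had a mean of 585.6 in MC and 275.3 in Plus A, or 2.13 times as much in MC. *Bak1* had 1634 in MC and 1121 in Plus A. *Bok* was lower in MC, at 1539 against 2927, and so were *Bid* (519.5 against 780.1), *Pmaip1* (2518 against 3687), *Bax* (3825 against 5039), *Bad* (1448 against 1784) and *Bcl2l11* (692.3 against 796.9). For *Bmf*, *Bak1*, *Bok*, *Bax*, *Bad* and *Pmaip1* the sign was that of Plus A against MC in hypoxia, and for *Bcl2l11* and *Bid* it was the other. In hypoxia *Bax*, *Bad* and *Bid* did not pass the adjusted p of edgeR with Plus A (0.1, 0.061 and 0.18), so their signs there are uncertain.

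Genes that act with or upstream of these 8 were taken from 5 lists (pro-survival BCL2 genes, other BH3 genes, mitochondrial pores and released proteins, apoptosome and caspase genes, and transcription factors that control the family). Of 34 symbols 31 were in the tables with 1 identifier, and 27 were tested against MC in hypoxia. Of these 27, 6 were higher and 5 lower with miR-125b, 5 and 5 with Plus A, 4 and 5 with Trim A, 5 and 6 with Trim AG, and 7 and 5 with Trim AGU, where 9.43 to 17% of all genes tested were higher and 12.4 to 20.2% lower. In these comparisons the median log2 fold change was 0.53 to 0.75 for the transcription factor list (9 genes tested), 0.10 to 0.63 for the mitochondrial list (5), -0.46 to -0.25 for the apoptosome and caspase list (7), -0.52 to -0.33 for the pro-survival list (3) and -0.69 to 0.05 for the other BH3 genes (3).

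*Ddit3*, which encodes the stress factor CHOP, a known activator of *Bcl2l11* transcription, rose with all 5 mimics, by log2 fold changes of 1.27 with miR-125b and 1.92 with Trim AGU at the ends of the range. It was at 88.72 to 94.45 CPM in Hypoxia MC and at 206.1 to 231 CPM in Hypoxia miR-125b.

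The pro-survival gene *Bcl2l2*, which encodes BCL-W, fell with miR-125b, Plus A, Trim A and Trim AG (log2 fold changes of -1.10 to -0.83) and was at -0.68 with Trim AGU, which did not pass (adjusted p = 0.065). *Foxo1* rose with miR-125b (0.66) and Plus A (1.31), and *Jun* fell with those (-0.83 and -1.25), with Trim A (-0.71) and with Trim AGU (-0.78). With Trim AG and Trim AGU *Foxo3*, a factor that drives *Bcl2l11* and *Pmaip1* in other cells, fell, with values of -1.29 and -1.55. Against miR-125b in hypoxia, 28 of the list genes were tested and 2 were higher and 3 lower with Trim AG (7.85% and 11.5% of all genes tested), among them *Casp8*, the caspase that cleaves BID, at -1.13 ± 0.12 (adjusted p = 0.00023).

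The genes most like each of the 8 over the 11 group means were found by Pearson's r of log2(CPM + 0.5) among the 12314 genes whose mean reached 1 CPM, as a description in which all points share libraries. *Tpst1* (r = 0.976) and *Myog* (0.967) were among the 3 genes most like *Bmf*, and *Get4*, *Acta2* (0.976 each) and *Plp2* (0.972) were most like *Bok*. *Taf11* (0.954), *Mrpl44* (0.951) and *Mfap5* (0.933) were most like *Bak1*. Among the 8 genes themselves *Bmf* and *Bok* ran opposite (r = -0.944), as did *Bcl2l11* and *Pmaip1* (-0.895), while *Bak1* had low values with *Bax* (0.103) and *Bmf* (0.0919). Without Hypoxia MC, the group that stands apart for *Bmf* and *Bok*, r was -0.799 for that pair and -0.852 for *Bcl2l11* and *Pmaip1*, and *Bak1* had r = 0.703 with *Bok* in place of -0.132, -0.544 with *Bmf*, -0.832 with *Bcl2l11* in place of -0.261, and 0.107 with *Bax*.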

How the data were processed

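Each table deposited by the authors sets 1 group beside another. In 11 of them the raw count of each gene per library was used, as deposited, with the FPKM value that the authors computed for it. For Normoxia MC the authors' group mean, an expression signal scaled between libraries, was used without counts. Their own fold changes, p-values and adjusted p-values were not used. HISAT2 and StringTie are named in the submitters' processing notes, and the genome build is not given in the sources used here. Tables were joined by gene identifier, a gene absent from a table was set to 0, and 0 counts conflicted. The symbols *Mcl1* and *Bbc3* matched no gene, and *Cycs* had more than 1 identifier and was left out. Libraries are not stranded, so antisense reads cannot be told apart.

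Pairwise comparisons were fitted on 6 libraries each and interactions on 12, with edgeR 4.0.16 in R 4.3.3 (TMM, filterByExpr, quasi-likelihood test, Benjamini-Hochberg over all genes tested). A call required an adjusted p below 0.05 together with a 1.5-fold change or more. Standard errors were obtained by dividing the log2 fold change by the square root of F, and intervals are 95%. CPM are relative to the library total. Alternatives were DESeq2 1.42.0, RLE size factors, no filter, no fold threshold, all libraries in 1 fit, a replicate block, removal of the gene length trend, each library left out, and both libraries that stood apart left out together. For the gene length trend, a lowess fit (span 0.3) of each library's log2 CPM deviations on gene length was entered as an offset. The edgeR test was then repeated, so its p-values changed too. Of the partner lists the text names at most the 3 called genes with the largest log2 fold change per comparison, and some genes that the rules for named genes pick are not reported here. Replicates differed by more than sampling noise (chi-square per gene of 4.75 to 219). The fitting step was tested on simulated data with 200 genes changed, fewer than were called in the 2 real comparisons simulated. The simulated log2 changes were 1 to 2 in size, so recovery of smaller ones, as in several calls given here, was not measured. For miR-125b against MC in hypoxia edgeR recovered 90% of them, and 8.16% of its calls were false. For the interaction of Trim AG these were 73% and 3.31%. The genes and lists were chosen with earlier results of these data known. Seed sites in transcripts were not analysed here.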

Additional observations from a re-analysis of the deposited data

Results flagged for a closer look

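The difference between hypoxia and normoxia, which includes serum and glucose, was not the same with Trim AG and miR-125b for 2 of the 8 genes, by the interaction test of edgeR over 12 libraries. For *Bmf* the difference was -1.660 on the log2 scale (adjusted p = 0.00028): the gene was lower in hypoxia than in normoxia in all Trim AG libraries, while with miR-125b each library in hypoxia was above each in normoxia. For *Pmaip1* it was 0.612 (adjusted p = 0.0042): with miR-125b each hypoxia library was below each normoxia library, while with Trim AG they overlapped. Over all alternatives *Bmf* ranged from -1.79 to -1.541, called in each, and *Pmaip1* from 0.497 to 0.713, not called without replicate 2 of Hypoxia Trim AG. The 3 Hypoxia Trim AG libraries were also the deepest, with at least 39940087 counts, and 4 of 8 muscle markers (*Myog* -2.62, *Tnnt2* -2.70) and 1 of 5 fibroblast markers were lower and *Acta1* higher in the same interaction. The part of depth and of these markers in these values was not tested.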

How the results depend on the processing

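Of 35 called fold changes, 26 kept their call in every alternative and 0 changed direction. Lost calls were 21 of those compared with a library left out, 5 with the gene length trend removed, 3 with the replicate block, 1 with no filter, and 0 with RLE factors, DESeq2 or all libraries in 1 fit. Counts of genes called (of 8) moved by over 1.5 times in 39 of 312 settings, and the cause was not tested. With no fold threshold they were 6 for miR-125b, 5 for Plus A and 7 for Trim A against MC, 1 each for Plus A and Trim A against miR-125b in hypoxia, 4 for Trim AG and 5 for Trim AGU against it in normoxia, 6, 3, 4 and 5 between hypoxia and normoxia for miR-125b, Plus A, Trim A and Trim AG, and 4 for the interaction of Trim AG. By the same rule 52.1 to 59.5% of all genes passed in those 3 comparisons with MC, 15.9% and 2.19% for Plus A and Trim A against miR-125b in hypoxia, in normoxia 38.5% (Trim AG) and 25% (Trim AGU), 47.6 to 54.7% between hypoxia and normoxia, and 22.7% in the interaction. In hypoxia the count for Trim AGU against miR-125b was 1 (*Bak1*) with no filter. Between hypoxia and normoxia, with the gene length trend removed it was 1 for miR-125b and 1 for Trim AGU, and with all libraries in 1 fit 4 for Trim AGU. The interaction of Trim AGU had 3 with all libraries in 1 fit and 1 (*Bid*) with DESeq2.

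With each library left out the counts ranged from 3 (without replicate 3 of Hypoxia MC) to 5 for Trim AGU against MC, and in hypoxia against miR-125b from 0 to 1 for Trim A (*Bmf*, without replicate 1 of Hypoxia Trim A) and from 0 to 3 for Trim AGU. In normoxia against miR-125b they were 0 to 2 for Trim AG (2 without replicate 1 of miR-125b) and 1 to 2 for Trim AGU (2 without replicate 1 or 2 of miR-125b or replicate 1 of Trim AGU, which added *Bak1*, *Bmf* and *Bad* in turn). Between hypoxia and normoxia with Trim AGU they were 1 to 3, and for the interactions 0 to 1 with Trim A (*Bmf*, without replicate 1 of Hypoxia Trim A), 1 to 2 with Trim AG and 0 to 3 with Trim AGU (3 without replicate 1 of Hypoxia Trim AGU: *Bax*, *Bid* and *Bmf*).

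Replicate numbers did not pair the libraries (correlations of same-numbered deviations -0.161 to 0.0756, with 0 comparisons in which all passed 0.1). With the replicate block the count was 0 for Trim AGU against miR-125b in hypoxia (*Bak1* adjusted p = 0.098, *Bcl2l11* 0.17) and 1 for Trim AGU between hypoxia and normoxia (*Bid* adjusted p = 0.094). It changed no other call among those given here. On TMM-scaled library sizes 17 of 99 group levels moved by over 1 SD.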
